A study of Homo sapiens with 8 samples.

Results

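The PDE4 family of cyclic AMP (cAMP) phosphodiesterases comprises 4 genes, PDE4A, PDE4B, PDE4C and PDE4D, and all 4 were found among the 60609 gene identifiers in the table of read counts. The family was chosen by earlier measured values of these same libraries, in particular the difference in PDE4D reads between the groups. The members' own levels, differences and shares of PDE4 reads are therefore given as descriptions, with no test. RNA sequencing had been done on 8 libraries of the established cell line HCT116, which derives from a human colon cancer. The first group was 4 libraries of a derivative made by CRISPR-Cas9 editing, with genotype GNAS R201C/+, and the second was 4 libraries of the parental cells, with genotype GNAS wt. Nothing in the labels says whether the derivative is 1 clone or whether replicates were separate cultures, so p-values describe only how far these libraries differ from each other, possibly for technical reasons. A trait of 1 clone and an effect of the allele cannot be told apart in this design.

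The product of GNAS is the alpha subunit of the stimulatory G protein. It turns on adenylyl cyclase, and R201C is a known activating change in it. Adenylyl cyclases make cAMP, which acts through protein kinase A (PKA) and other effectors, and phosphodiesterases end the signal by hydrolysing cAMP. PDE4 enzymes are specific for cAMP. Each PDE4 gene has several promoters that give long and short isoforms, PKA activates the long isoforms by phosphorylation, and some PDE4 promoters respond to CREB, the transcription factor that PKA phosphorylates. PDE4 inhibitors such as rolipram and roflumilast raise cAMP in many cell types.

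Library totals ran between 45796887 and 48768360 counts in GNAS R201C/+ libraries and between 42584988 and 50986733 counts in parental libraries. The first principal component held 55.8% of the variance and separated the groups. Of 15751 genes tested with edgeR's quasi-likelihood test, 48.1% were called at a Benjamini-Hochberg adjusted p under 0.05, 24.1% higher and 24.0% lower in GNAS R201C/+ cells. For 41.6% of tested genes the groups did not overlap in CPM, the read count divided by library size. Most differences were small, with a median absolute log2 fold change of 0.12 and a 90th percentile of 0.44. The 3 PDE4 genes with enough reads to be tested all passed that threshold and had groups that did not overlap, but they were chosen on this contrast and nothing is read from this count. GNAS itself averaged 711 ± 13.2 CPM in GNAS R201C/+ cells and 677 ± 16.8 CPM in parental cells (SD, n = 4 each), a log2 fold change of 0.07 (edgeR adjusted p = 0.00412), and the groups overlapped. Counts per gene carry no allele, so they do not check the edit.

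The members differ in gene structure. In GENCODE 29 on GRCh38, PDE4D (ENSG00000113448.19) lies on the minus strand of chromosome 5 from 58969038 to 60522120, spans 1553 kb and has 29 annotated transcripts. PDE4B (ENSG00000184588.18) lies on the plus strand of chromosome 1 from 65792514 to 66374579, spans 582 kb and has 18 transcripts. PDE4A (ENSG00000065989.16) lies on the plus strand of chromosome 19 from 10416773 to 10469631, spans 52.9 kb and has 9 transcripts. PDE4C (ENSG00000105650.22) is on the same chromosome, on the minus strand from 18208652 to 18248200, spans 39.5 kb and has 14 transcripts. The union of annotated exons covered 16308 bases for PDE4D, 8644 for PDE4B, 6646 for PDE4A and 6546 for PDE4C. Counts per gene merge all isoforms, so long and short forms, and the promoter in use, could not be told apart.

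Promoter windows of these genes are shown because CREB binds the cAMP response element TGACGTCA and its shorter core TGACG. RefSeq windows on GRCh38.p14, each of 300 bases with 250 before and 50 after an annotated start, were searched on both strands for those letters, and every full element also counts as matches to the core. PDE4A had 5 windows, PDE4B 6, PDE4C 4 and PDE4D 8. The full element was found in 1 window in the family, at chr19:10416523-10416822 on the plus strand, the most upstream start of PDE4A. This window held 7 core matches, 5 of them outside the full element, and the full element began 3 bases before the start. The core was also found in 1 PDE4D window, at chr5:59587576-59587875 on the minus strand, 57 bases before the start, in 1 PDE4C window, and in no PDE4B window. Over all 35116 windows, 1.85% held the full element and 24.6% held the core. The 3 sequences below, on the gene's strand from 5′ to 3′, are the PDE4A and PDE4D windows just named and the most upstream PDE4B window, at chr1:65792260-65792559, in which no match was found. Capitals mark the core on either strand and the full element.
PDE4A: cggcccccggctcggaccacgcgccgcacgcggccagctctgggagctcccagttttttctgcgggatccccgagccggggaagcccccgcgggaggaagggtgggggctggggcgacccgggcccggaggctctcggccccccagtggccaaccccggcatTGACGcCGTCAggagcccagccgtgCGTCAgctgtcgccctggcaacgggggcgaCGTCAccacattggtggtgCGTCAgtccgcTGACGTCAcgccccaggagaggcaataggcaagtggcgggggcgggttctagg
PDE4D: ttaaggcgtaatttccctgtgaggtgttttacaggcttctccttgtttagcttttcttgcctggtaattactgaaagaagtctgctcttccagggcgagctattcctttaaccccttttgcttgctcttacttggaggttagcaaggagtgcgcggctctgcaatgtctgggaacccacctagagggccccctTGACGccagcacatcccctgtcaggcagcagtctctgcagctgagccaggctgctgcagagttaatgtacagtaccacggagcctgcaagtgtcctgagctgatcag
PDE4B: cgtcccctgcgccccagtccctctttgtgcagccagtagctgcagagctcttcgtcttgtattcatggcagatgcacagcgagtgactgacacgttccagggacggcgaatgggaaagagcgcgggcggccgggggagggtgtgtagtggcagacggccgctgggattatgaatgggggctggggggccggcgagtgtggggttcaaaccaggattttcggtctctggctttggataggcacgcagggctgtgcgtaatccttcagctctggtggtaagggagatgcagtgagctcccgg
These matches describe letters in the windows. Whether any of these starts was in use in HCT116 cells was not measured.

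PDE4D, whose enzyme is anchored at many cAMP signalling complexes, was the member with the largest difference. Its reads numbered 4627, 4412, 4468 and 4865 in GNAS R201C/+ libraries, against 3, 6, 7 and 8 in parental libraries. The groups lay far apart, and the parental counts were close to the 3 counts that a library with a count of 0 would still allow. Mean level was 97.5 ± 2.38 CPM in GNAS R201C/+ cells and 0.135 ± 0.0557 CPM in parental cells (SD, n = 4 each). Pooled, 18372 reads stood against 24, a ratio of 742 after scaling for library size, with an exact binomial 95% interval of 498 to 1160 that covers counting error only. The fitted log2 fold change of 9.51 ranked first of the 15751 tested genes, and the next largest fitted value was 6.72. That was for UNC5C, a netrin receptor gene with 13, 15, 12 and 13 reads in GNAS R201C/+ libraries and 0 in every parental library, whose fitted value depends on the prior count. In bulk RNA, a gene active in more of the cells and a gene with more RNA in each cell cannot be told apart.

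Genes that overlap PDE4D had few reads. PART1, a long non-coding RNA gene on the opposite strand, shares 227 of the exonic bases of PDE4D and was listed at 0 in all 8 libraries. A value of 0 in this table is not read as absence of a transcript. AC092343.1, an antisense gene within the PDE4D span that shares no exonic base with it, had 6 reads in GNAS R201C/+ libraries and 0 in parental libraries.

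PDE4B, an enzyme best known from immune and inflammatory cells, was the most abundant member in both groups. Its level was 222.4, 221.4, 221.4 and 222.5 CPM in GNAS R201C/+ libraries, against 148.7, 146.6, 145.5 and 144.6 CPM in parental libraries. The groups did not overlap, and the edited libraries were nearly equal. The fold change was 1.52, or 0.60 on the log2 scale (SE 0.02), and 505 tested genes had a larger rise. The coefficient of variation among GNAS R201C/+ libraries was 0.279%, below the 0.978% that counting error alone would give, while in parental libraries the observed 1.2% was close to the 1.22% from counting.

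PDE4A, whose long isoforms bind Src family kinases, differed little. Its level was 61.7, 62.4, 60.7 and 59.8 CPM in GNAS R201C/+ libraries, against 63.5, 63.0, 67.6 and 64.1 CPM in parental libraries. The groups did not overlap, but by a narrow margin, with 62.4 CPM as the highest edited library and 63.0 CPM as the lowest parental one. The log2 fold change was -0.08 (SE 0.03), and without parental replicate 3, the highest library, it was -0.06. This size is below the median absolute difference over all tested genes. CDC37, a chaperone gene on the opposite strand, overlaps the PDE4A span but shares no exonic base with it, and had 66158 reads in GNAS R201C/+ libraries and 65727 in parental libraries.

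PDE4C had 4, 2, 2 and 7 reads in GNAS R201C/+ libraries and 2, 5, 2 and 1 in parental libraries. These are 15 and 10 reads in all, too few for the test, and the groups overlapped. The ratio of pooled reads was 1.45 with an interval of 0.611 to 3.62, and it was 1.05 without GNAS R201C/+ replicate 4 and 2.17 without parental replicate 2. A difference in PDE4C was not detectable with so few reads. The gene is also uncertain, because 70.7% of its exonic bases are shared with AC008397.2, a gene on the same strand with 13 reads in GNAS R201C/+ libraries and 4 in parental libraries.

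**Figure D1:**
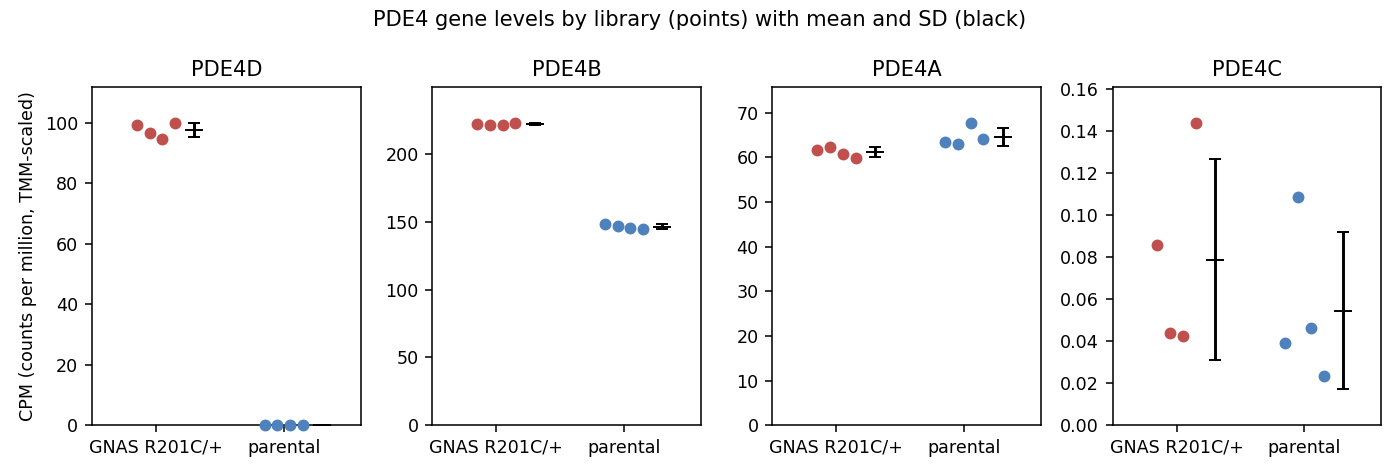
Level of each PDE4 gene in CPM by library (points) in GNAS R201C/+ cells (red, left) and parental cells (blue, right), each panel on its own linear axis from 0, with the mean and SD of 4 libraries in black. PDE4D lies between 94.5 and 99.7 CPM in GNAS R201C/+ libraries and between 0.0590 and 0.188 CPM in parental libraries, while the PDE4C points overlap.

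Divided by exonic length, as CPM per kb of annotated exon (RPKM), the order of the members was the same in both groups for PDE4B and PDE4A but not below them. PDE4B stood at 25.7 RPKM in GNAS R201C/+ cells and 16.9 RPKM in parental cells, and PDE4A at 9.20 RPKM in GNAS R201C/+ cells and 9.71 RPKM in parental cells. PDE4D came next in GNAS R201C/+ cells at 5.98 ± 0.146 RPKM, against 0.00827 ± 0.00342 RPKM in parental cells (SD, n = 4 each). PDE4C was at 0.0120 RPKM in GNAS R201C/+ cells and 0.00833 RPKM in parental cells, and in parental cells PDE4C and PDE4D did not differ beyond their spread. Among tested genes with an annotated exonic length, PDE4D exceeded 59% in GNAS R201C/+ cells and 0.0192% in parental cells. PDE4D passed the filter on low counts through its GNAS R201C/+ reads, so nothing is read from its low place in parental cells.

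The family as a whole was higher in the edited cells. The 4 genes summed to 380.7 ± 2.93 CPM in GNAS R201C/+ cells and 211.1 ± 2.07 CPM in parental cells (SD, n = 4 each), a ratio of 1.80. The ratio was 1.53 per kb, at 40.9 ± 0.236 RPKM in GNAS R201C/+ cells and 26.7 ± 0.294 RPKM in parental cells. In reads, PDE4D made up 57.4% of the difference in CPM and PDE4B 44.6%, with PDE4A taking away 2.0%. Per kb the order turned, with PDE4B at 61.5% and PDE4D at 42% of the difference. PDE4A and PDE4B together were at 283.1 ± 1.02 CPM in GNAS R201C/+ cells and 210.9 ± 2.09 CPM in parental cells, so the family sum differed without PDE4D too.

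Shares of PDE4 reads changed accordingly. PDE4D took 25.6% ± 0.443 of PDE4 reads in GNAS R201C/+ libraries and 0.0640% ± 0.0266 in parental libraries (SD, n = 4 each). PDE4B took 58.3% ± 0.334 in GNAS R201C/+ libraries and 69.3% ± 0.832 in parental libraries, and PDE4A took 16.1% ± 0.305 in GNAS R201C/+ libraries and 30.6% ± 0.817 in parental libraries. Per kb, PDE4B held 62.8% ± 0.296 in GNAS R201C/+ libraries and 63.5% ± 0.888 in parental libraries, and these ranges overlapped. This depended on the length used. With the longest annotated transcript the share was 66.4% in GNAS R201C/+ libraries and 70.4% in parental libraries and the groups did not overlap. The PDE4D share per kb was 14.6% in GNAS R201C/+ libraries and 0.0311% in parental libraries, and that of PDE4A was 22.5% in GNAS R201C/+ libraries and 36.4% in parental libraries. The ratio of PDE4B to PDE4A in CPM was 3.63 ± 0.0719 in GNAS R201C/+ libraries and 2.27 ± 0.0870 in parental libraries.

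**Figure D2:**
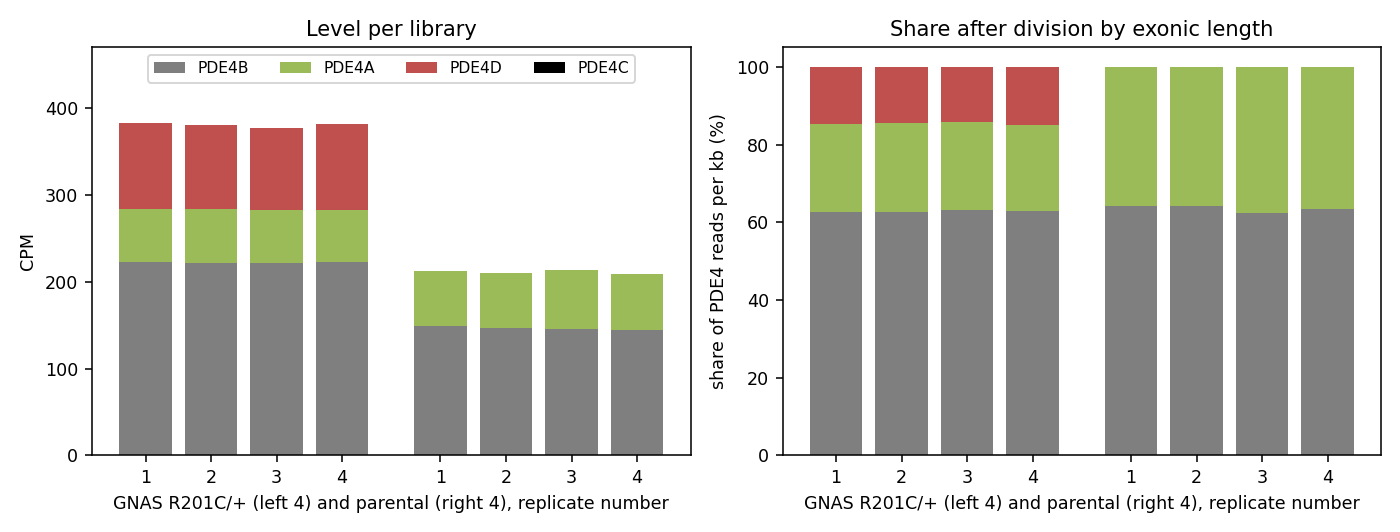
PDE4 genes stacked for each library, with the 4 GNAS R201C/+ libraries left of the 4 parental ones, as CPM (left panel) and as percent of PDE4 reads per kb of exon (right panel). PDE4D (red) fills 14.3% to 15% of the right panel in GNAS R201C/+ libraries and is too thin to see in parental libraries.

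Among the 24 listed genes of cyclic nucleotide phosphodiesterases and their subunits, PDE4B ranked first and PDE4A second by RPKM in both groups. PDE4D ranked sixth in GNAS R201C/+ cells, beside PDE9A, and 20 of 24 in parental cells. The 24 are not all enzyme genes, and PDE6D, which is not catalytic, stood above PDE4D in both groups. The 12 other cAMP-hydrolysing genes summed to 15.8 ± 0.260 RPKM in GNAS R201C/+ cells and 15.2 ± 0.150 RPKM in parental cells (SD, n = 4 each), a ratio of 1.04. PDE4 genes took 74.5% ± 0.332 of reads from cAMP-hydrolysing phosphodiesterase genes in GNAS R201C/+ libraries and 62.4% ± 0.0386 in parental libraries. Per kb, all cAMP-hydrolysing genes together were at 56.7 ± 0.400 RPKM in GNAS R201C/+ cells and 41.8 ± 0.439 RPKM in parental cells.

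Of these 12 genes, 8 were tested, 2 rose, 2 fell and 4 did not pass, beside 48.1% called over all tested genes. PDE8A, a high-affinity cAMP phosphodiesterase, averaged 69.1 ± 0.899 CPM in GNAS R201C/+ cells and 59.8 ± 1.11 CPM in parental cells (SD, n = 4 each; log2 0.21, edgeR adjusted p = 6.29e-09). PDE10A, which hydrolyses both cyclic nucleotides, rose 2.44-fold but from few reads, 222 in GNAS R201C/+ libraries and 88 in parental libraries, and a minimum of 1 CPM in 4 libraries removed it and left 1 gene higher. PDE3B, the insulin-regulated phosphodiesterase of fat and liver, fell by 0.36 on the log2 scale, and PDE11A fell by 0.47. The list's median log2 fold change was -0.01, against 0.00 for all tested genes.

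**Figure D3:**
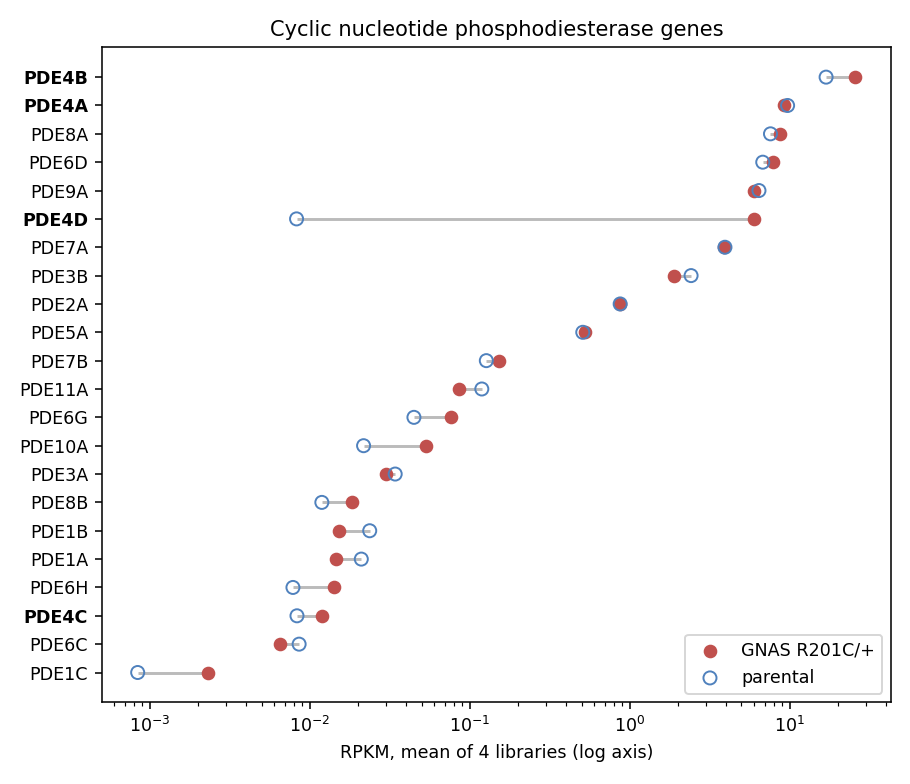
Mean level of each phosphodiesterase gene with reads in both groups, in RPKM on a log axis, in GNAS R201C/+ cells (filled red) and parental cells (open blue), PDE4 genes in bold. PDE4D has the widest gap of the plot, at 5.98 RPKM in GNAS R201C/+ cells and 0.00827 RPKM in parental cells.

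Phosphodiesterase genes listed as specific for cGMP, without those such as PDE10A that act on both cyclic nucleotides, were measured likewise. Of 3 tested, 1 rose, 1 fell and 1 did not pass, beside 24.1% higher and 24.0% lower over all tested genes. PDE6D, a prenyl-binding subunit that is not itself catalytic, rose by 0.21 on the log2 scale, with GNAS R201C/+ replicate 4 apart at 25.0 CPM. PDE9A fell by 0.10 (edgeR adjusted p = 0.0118), but this call was lost without GNAS R201C/+ replicate 1 (edgeR adjusted p = 0.0540) or replicate 4 (edgeR adjusted p = 0.0757), which left 0 genes lower. Over all alternatives the adjusted p of PDE9A ran between 0.0033 and 0.0757. PDE5A did not pass, and PDE6B, a rod photoreceptor subunit, was listed at 0 in every library.

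Upstream of the phosphodiesterases, adenylyl cyclase genes make the cAMP that PDE4 enzymes break down. Of 4 tested, 0 rose, 3 fell and 1 did not pass, with a list median of -0.17, beside 24.0% lower over all tested genes. ADCY3 averaged 94.0 ± 2.73 CPM in GNAS R201C/+ cells and 110 ± 2.66 CPM in parental cells (SD, n = 4 each; log2 -0.22, edgeR adjusted p = 3.52e-10). ADCY7 fell by 0.23 and ADCY6 by 0.11 on the log2 scale. ADCY1, ADCY2, ADCY4 and ADCY8 were listed at 0 in every library.

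PKA is the main cAMP effector and the kinase that activates long PDE4 isoforms, and its subunit genes were listed together with genes of its inhibitors. Of 9 tested, 6 rose, 1 fell and 2 did not pass, with a list median of 0.22, beside 24.1% higher and 24.0% lower over all tested genes. Of the 6 that rose, 2 encode inhibitors of PKA, PKIA at 0.24 and PKIB at 0.46 on the log2 scale, a pair picked out once the values were known. The PKIA groups overlapped (edgeR adjusted p = 0.0152). Only 5 genes of the list were higher without GNAS R201C/+ replicate 1, GNAS R201C/+ replicate 4 or parental replicate 3. The catalytic subunit gene PRKACB averaged 235 ± 6.61 CPM in GNAS R201C/+ cells and 196 ± 4.77 CPM in parental cells (SD, n = 4 each; log2 0.26, edgeR adjusted p = 2.12e-13). The type I regulatory subunit genes PRKAR1A and PRKAR1B rose by 0.22 and 0.41 on the log2 scale, while the type II gene PRKAR2B fell by 0.35. PRKACG, a testis-expressed catalytic subunit gene, was listed at 0.

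The other cAMP effectors and the cAMP exporters formed a list of 8 tested genes. Among them 6 fell, 1 rose and 1 did not pass. Their median was -0.26, and over all tested genes 24.1% were higher and 24.0% lower. POPDC3, a membrane protein of the cAMP-binding Popeye family, fell by 0.36 on the log2 scale, the pacemaker channel gene HCN4 by 0.30, and the exporter genes ABCC4 and ABCC5 by 0.19 and 0.23. ABCC4 averaged 76.3 ± 2.34 CPM in GNAS R201C/+ cells and 87.0 ± 1.95 CPM in parental cells (SD, n = 4 each; edgeR adjusted p = 3.62e-08). The number of genes higher was 0 with DESeq2, with a minimum of 1 CPM in 4 libraries, or without GNAS R201C/+ replicate 2, parental replicate 2 or parental replicate 4, and 2 without GNAS R201C/+ replicate 1. HCN3 was listed at 0.

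Genes of proteins that bind or modify PDE4 enzymes differed in both directions. Of 19 tested genes, 7 rose, 5 fell and 7 did not pass, with a list median of 0.02, beside 24.1% higher and 24.0% lower over all tested genes. FYN and SRC, tyrosine kinases that bind long PDE4 isoforms, fell by 0.61 and 0.31 on the log2 scale. ARRB2, the beta-arrestin that brings PDE4D to activated receptors, averaged 52.5 ± 0.225 CPM in GNAS R201C/+ cells and 61.2 ± 1.07 CPM in parental cells (SD, n = 4 each; log2 -0.22, edgeR adjusted p = 2.16e-09). PDE4DIP, the Golgi and centrosome protein myomegalin that binds PDE4D, rose by 0.22. The number higher was 4 with DESeq2 and 4 without GNAS R201C/+ replicate 1, GNAS R201C/+ replicate 2, parental replicate 2 or parental replicate 4. NDE1 was listed at 0 in every library. It is broadly expressed in dividing cells, so a value of 0 in this table is not read as absence of a transcript.

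Genes known to respond to cAMP or CREB, with the PDE4 genes left out, formed the largest list. Of 23 tested, 14 rose, 2 fell and 7 did not pass, with a list median of 0.27, beside 24.1% higher and 24.0% lower over all tested genes. The list holds PDE10A, PDE3A and PDE7B as well, which are also counted among the other phosphodiesterases. The 7 that did not pass were CREM, PER2, SIK1, BDNF, VGF, PDE3A and PDE7B. NR4A2, an immediate early nuclear receptor gene, had 559, 562, 547 and 568 reads in GNAS R201C/+ libraries, against 339, 297, 290 and 280 in parental libraries (log2 0.85, SE 0.06, edgeR adjusted p = 1.96e-16). Its groups did not overlap. AREG, a ligand of the EGF receptor, rose by 0.54 on the log2 scale, and SCG2, a secretory granule protein gene, by 0.68. IRS2, an insulin receptor substrate gene, fell by 0.48. SST, CGA and TXNIP were listed at 0, which, as for NDE1, is not read as absence of a transcript. The PDE4B log2 fold change of 0.60 lay between those of AREG and SCG2, and that of PDE4D lay above all members of this list.

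**Figure D4:**
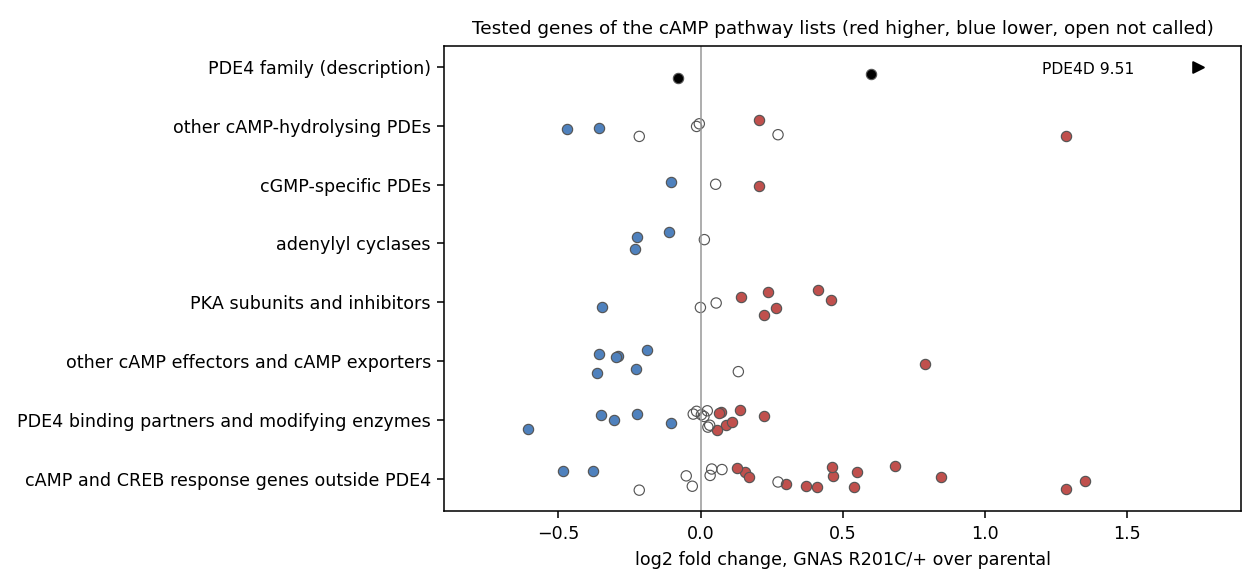
Log2 fold change of each tested gene, GNAS R201C/+ over parental, by list, with genes that rose in red, genes that fell in blue and genes that did not pass as open circles. PDE4A, PDE4B and PDE4D (black, shown as a description) stand at the top, with PDE4D beyond the axis at 9.51, and the adenylyl cyclase row holds no red point.

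Genes around each PDE4 gene were examined next, to see whether the difference in PDE4D was shared by its neighbours. Within 1 Mb of PDE4D, 7 of 9 protein-coding genes were tested, 2 rose, 1 fell and 4 did not pass. These are 42.9% called, beside 54.9% of all protein-coding tested genes and 53.4% of those on chromosome 5. The gene next to PDE4D on its upstream side, DEPDC1B, lies 74.8 kb away and averaged 60.7 ± 0.365 CPM in GNAS R201C/+ cells and 58.4 ± 1.39 CPM in parental cells (SD, n = 4 each; log2 0.05, edgeR adjusted p = 0.0809). Without parental replicate 1 DEPDC1B passed (edgeR adjusted p = 0.0366), in a range over all alternatives of 0.0366 to 0.233. On the other side RAB3C, a vesicle traffic GTPase gene 109.6 kb away, had 3, 5, 3 and 5 reads in GNAS R201C/+ libraries and 0 in every parental library, at or near the limit of detection. It was left out by the filter on low counts, and with no filter it was called higher (edgeR adjusted p = 0.000393). PLK2, a stress-responsive kinase gene, rose by 0.24 on the log2 scale, ZSWIM6 by 0.39, and NDUFAF2, an assembly factor of respiratory complex I, fell by 0.18. Among the 7 tested neighbours, which leave out RAB3C, the largest absolute log2 fold change was 0.387, against 9.51 for PDE4D.

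Within 1 Mb of PDE4B, 10 of 15 protein-coding genes were tested, 3 rose, 1 fell and 6 did not pass. These are 40.0% called, beside 53.8% of protein-coding tested genes on chromosome 1. LEPR, the leptin receptor gene next to it, averaged 13.4 ± 0.404 CPM in GNAS R201C/+ cells and 12 ± 0.413 CPM in parental cells (SD, n = 4 each; log2 0.16, edgeR adjusted p = 0.00645). SGIP1, on the other side, did not pass (log2 0.22, edgeR adjusted p = 0.386). AK4, a mitochondrial adenylate kinase gene, fell by 0.18 and the nucleotide sugar transporter gene SLC35D1 rose by 0.16. MIER1 rose by 0.08 (edgeR adjusted p = 0.0223), but the call was lost without GNAS R201C/+ replicate 4 (edgeR adjusted p = 0.112), parental replicate 1 (edgeR adjusted p = 0.0527) or parental replicate 3 (edgeR adjusted p = 0.155), in a range over all alternatives of 0.00347 to 0.155.

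The PDE4A neighbourhood held the largest share of called genes of the 4 neighbourhoods. Within 1 Mb, 53 of 66 protein-coding genes were tested, 25 rose, 21 fell and 7 did not pass, so that 86.8% were called. The share was 54.9% for all protein-coding tested genes and 56.5% for those on chromosome 19, and no test of this difference was made. Median level was 40.3 CPM in the neighbourhood and 24.3 CPM over chromosome 19. The changes next to PDE4A were small, with the cytokine receptor kinase gene TYK2 at -0.10 and KEAP1, the sensor that controls NRF2, at 0.11 on the log2 scale. Of the 4 called genes with the smallest adjusted p, all between 852.4 and 914.7 kb away, RAB3D rose by 0.53, PLPPR2 by 0.46, the erythropoietin receptor gene EPOR by 0.76 and RGL3 by 0.61. Large changes lay elsewhere too, and 3 were named after their values were seen. The adhesion molecule gene ICAM1, 130.2 kb away, rose by 0.73, SWSAP1, 905.1 kb away, rose by 0.90, and the zinc finger gene ZNF426, 878.1 kb away, had the largest change of this neighbourhood, -1.83. EPOR averaged 30.6 ± 1.02 CPM in GNAS R201C/+ cells and 18.0 ± 0.634 CPM in parental cells (SD, n = 4 each; edgeR adjusted p = 2.8e-20).

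Within 1 Mb of PDE4C, 63 of 80 protein-coding genes were tested, 24 rose, 13 fell and 26 did not pass, so that 58.7% were called. This is near the 54.9% of all protein-coding tested genes and the 56.5% of those on chromosome 19. The genes next to it were RAB3A, which did not pass (log2 0.10, edgeR adjusted p = 0.0886), and AC008397.1, with 0 reads in GNAS R201C/+ libraries and 1 in parental libraries. Without parental replicate 1 RAB3A passed (edgeR adjusted p = 0.0212), in a range over all alternatives of 0.0212 to 0.258. The chaperone gene FKBP8 averaged 154 ± 5.88 CPM in GNAS R201C/+ cells and 252 ± 9.26 CPM in parental cells (SD, n = 4 each; log2 -0.71, edgeR adjusted p = 9.27e-18). UNC13A, a synaptic vesicle priming gene, fell by 0.38, ISYNA1, the inositol phosphate synthase gene, rose by 0.26, and ABHD8 rose by 0.91.

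**Figure D5:**
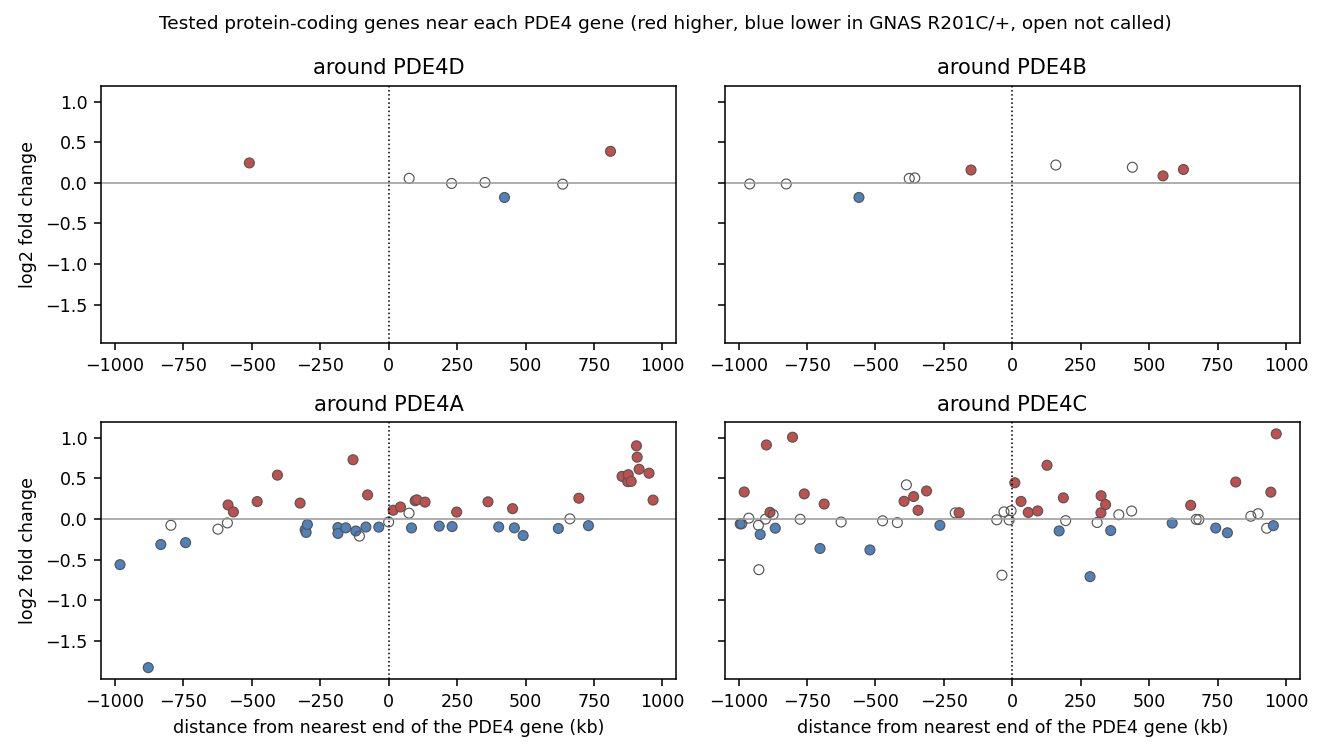
Log2 fold change, GNAS R201C/+ over parental, of tested protein-coding genes against their distance in kb from the nearest end of each PDE4 gene (0 on the horizontal axis, negative toward lower coordinates). Genes that rose are red, genes that fell blue and genes that did not pass open. The panel for PDE4D holds 7 points, all within 0.387 of 0.

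Genes with the most similar pattern over the 8 libraries were found by Euclidean distance between log2 CPM profiles, each centred on its own mean. This distance grows with the size of the difference between the groups, and PDE4D had the largest of all tested genes. Its large distances follow from that, and nothing more is read from them. For PDE4D the nearest 5 lay at distances of 6.91 to 7.8 and included TCF21, LRP1B, GRIK2 and TARID. TCF21, a mesodermal transcription factor gene, averaged 13.1 ± 0.397 CPM in GNAS R201C/+ cells and 0.595 ± 0.222 CPM in parental cells (SD, n = 4 each). For PDE4B the nearest were IRS1 at 0.0649, then B3GALT6, GPR153, GPRC5A and THSD4. IRS1, an insulin receptor substrate gene, averaged 281 ± 5.04 CPM in GNAS R201C/+ cells and 182 ± 1.07 CPM in parental cells (SD, n = 4 each). For PDE4A the nearest were MED15 at 0.0469, ASPSCR1, SF3B4, RNASEH2B and RNF126, all with small differences between the groups. For PDE4C they were AC092683.1 at 0.700, CXCL8, MYH7B, AL034417.2 and AC114490.3, genes of 43 to 99 reads in each group, so these likenesses rest on few reads.

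A search for genes present in 1 group and nearly absent in the other found few. With a mean under 0.1 CPM in parental cells and at least 1 CPM in GNAS R201C/+ cells, 1 gene qualified, the glutamate receptor gene GRIK2, with 293 reads in GNAS R201C/+ libraries and 14 in parental libraries. PDE4D missed this rule only because its parental mean was 0.135 CPM. With bounds chosen after the data were seen, of under 0.2 CPM in parental cells and at least 1 CPM in GNAS R201C/+ cells, PDE4D and GRIK2 qualified, and 3 genes did in the opposite direction. At 10 CPM or more in GNAS R201C/+ cells, PDE4D was left alone. With the first bounds reversed, 1 gene qualified, B3GALT5-AS1, which had 12 reads in GNAS R201C/+ libraries and 192 in parental libraries.

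Leukocyte and endothelial markers were low in both groups, while the fibroblast marker COL1A1 was not. White blood cells are known for high PDE4B. Of 8 leukocyte markers, PTPRC, CD3E and MS4A1 were listed at 0, and the summed level of the list was 0.867 to 1.03 CPM in GNAS R201C/+ libraries and 0.774 to 0.984 CPM in parental libraries. Here and below, as for NDE1, a value of 0 is not read as absence of a transcript. Fibroblast markers summed to 29.6 to 31.7 CPM in GNAS R201C/+ libraries and 28.7 to 32.4 CPM in parental libraries, nearly all of it COL1A1, with DCN and LUM at 0. COL1A1 averaged 29.9 CPM in GNAS R201C/+ cells and 30.3 CPM in parental cells, above the median of 19.3 CPM over all tested genes. Endothelial markers summed to 0.723 to 0.984 CPM in GNAS R201C/+ libraries and 0.511 to 1.02 CPM in parental libraries. Of 11 markers of colon epithelial lines, KRT20 and CDX1 were listed at 0. VIL1 had 24 reads in GNAS R201C/+ libraries and 17 in parental libraries, and LGALS4 and CEACAM5 had at most 3 in either group. The other 6 were tested. Of these 6, 4 rose, 1 fell and 1 did not pass, beside 24.1% higher and 24.0% lower over all tested genes. The summed level of the list was 4400 to 4480 CPM in GNAS R201C/+ libraries and 3850 to 4010 CPM in parental libraries. Most of this sum came from the keratin genes KRT8, KRT18 and KRT19. The part of this list in the PDE4 differences was not tested.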

How the data were processed

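The authors deposited raw counts of reads per gene, whole numbers for 60609 Ensembl identifiers in 8 columns. Per the submitters' processing notes, bcl2fastq, Trimmomatic, STAR, featureCounts and DESeq2 were used with GRCh38.p12. No source used here gives the annotation release, the strand setting or the treatment of multiply mapped reads. Per the labels' protocols the kit was directional.

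Names and exonic lengths came from GENCODE 29, matched on identifiers without version (58502 matched, 2088 more were named by a gene name table, and 19 had no match). Promoter windows came from RefSeq. edgeR 4.0.16 in R 4.3.3 was fitted to all genes kept by filterByExpr (minimum count 10, minimum total 15), 15751 of 32806 with reads, with TMM scaling, group as the only term, robust quasi-likelihood F tests and Benjamini-Hochberg adjustment. SE was taken as the size of the log2 fold change over the root of its F statistic. CPM used TMM-scaled library sizes, and RPKM is CPM per kb of annotated exon. The fit was tested on simulated data.

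The members, lists and tests were chosen with earlier results of these data known. Named genes are the PDE4 genes and GNAS, up to 4 called genes with the smallest adjusted p per list and neighbourhood, list members at 0, adjacent genes, the 5 nearest patterns per member, and genes present in 1 group only. Some genes that this rule covers are not reported here. Alternatives were other scalings, filters, DESeq2 1.42.0, limma-voom (limma 3.58.1), a replicate block and leaving out each library. Intervals cover counting error only.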

Additional observations from a re-analysis of the deposited data

Results flagged for a closer look

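In 150 groups of 4 libraries, 6 held a library set apart from the other 3 by a gap close to the whole range of the group, and chance alone sets apart about 1 in 20. None was of a PDE4 gene. GNAS R201C/+ replicate 4 was the library apart in 3 of these groups. ADCY6 was lowest there at 49.9 CPM, with the others at 50.5 to 50.6 CPM. PDE6D was highest there at 25.0 CPM, with the others at 21.2 to 21.7 CPM. RAB3A was highest there at 13.4 CPM, with the others at 12.8 CPM. RGL3 was highest in GNAS R201C/+ replicate 3 at 70.4 CPM, with the others at 69.0 to 69.2 CPM. PLPPR2 was highest in parental replicate 1 at 38.6 CPM, with the others at 36.9 to 37.1 CPM. SCG2 was lowest in parental replicate 3 at 6.20 CPM, with the others at 6.96 to 7.04 CPM.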

How the results depend on the processing

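With other scalings, filters and tools, the PDE4D, PDE4B and PDE4A differences kept their direction, and leaving out each library gave log2 fold changes of 9.23 to 9.7 for PDE4D, 0.592 to 0.608 for PDE4B and -0.0894 to -0.0573 for PDE4A. The pooled ratio ran between 612 and 853 for PDE4D and between 1.05 and 2.17 for PDE4C. The few reads and the shared exons limit any statement on PDE4C. With the longest transcript as length, shares per kb in GNAS R201C/+ libraries were 16.1% for PDE4D, 66.4% for PDE4B and 17.4% for PDE4A, and in parental libraries 70.4% for PDE4B and 29.5% for PDE4A. A minimum of 1 CPM in 4 libraries, which tests fewer genes, left 1 other cAMP phosphodiesterase and 0 other effectors higher. DESeq2 called 0 other effectors and 4 PDE4 partners higher, and the cause was not tested. Leaving out each library gave 0 to 1 cGMP phosphodiesterases lower, 0 to 2 other effectors higher and 4 to 7 PDE4 partners higher. For the PKA subunit and inhibitor genes it gave 5 to 6 higher. Over all genes DESeq2 called 6633, against 7577 with edgeR. Replicate numbers are only numbers: same-numbered libraries of the groups correlated at -0.218, 0.149, -0.0174 and -0.0775 over 10497 genes, and not every library correlated best with its own number. A replicate block called 7413 genes, with PDE4D at 9.51. Of 1049 values for 66 named genes under the alternatives, 1041 kept their direction and their side of the threshold, 0 reversed, 5 lost and 3 gained a call, the last including MYH7B without parental replicate 2 (edgeR adjusted p = 0.0468, range over alternatives 0.0468 to 0.897).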
